A study of Mus musculus with 6 samples.

Results

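The genes examined were 5 genes of oxysterol synthesis, breakdown and sensing: Ch25h, Cyp27a1, Cyp7b1, Hsd3b7 and Gpr183. They were chosen by symbol with their levels in the WT against Ahrr-deficient comparison already known, the high level of Ch25h in Ahrr-deficient cells among them. Of the 5, 2 (Ch25h and Cyp27a1) had a row among the 16111 named genes of the annotated expression table, and both passed the filter on low counts that left 11408 tested genes. The other 3 are not analysed here. Because the list was made with this comparison in view, the differences of Ch25h and Cyp27a1 are given as descriptions, without p-values.

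The libraries came from 6 cultures of fetal liver macrophages of C57BL/6 RCC mice, 3 wild-type (WT) and 3 deficient in Ahrr (labelled AhRR-/-), each with a mouse number of 1 to 3. The product of Ahrr represses AhR, the aryl hydrocarbon receptor, which is a transcription factor switched on by small ligands. The comparison asks how loss of that repressor shows in the transcripts of macrophages. The cells of all 6 cultures came from E13.5 fetuses and were grown for 5 weeks with 2% GM-CSF, a growth factor for macrophages, and the non-adherent cells were sequenced. The targeted allele is not described in the labels, nor whether a culture held the cells of a single fetus, so the p-values below measure the spread between these cultures.

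Oxysterols are cholesterol molecules that carry an added hydroxyl group. Ch25h, an enzyme of the endoplasmic reticulum that is induced by interferons and by Toll-like receptors, and Cyp27a1, a mitochondrial cytochrome P450, each put a hydroxyl on the side chain of cholesterol, at different carbons. Cyp7b1 adds a further hydroxyl to the sterol ring and so makes the ligand of Gpr183, a chemotactic receptor of immune cells, and Hsd3b7 oxidises that ligand to a form that the receptor does not sense. Side-chain oxysterols also activate the liver X receptors (LXR) and hold back the SREBP2 pathway of cholesterol synthesis, which ties the enzymes to the sterol economy of macrophages.

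Ch25h (ENSMUSG00000050370.4) is a gene of 1 exon, 1387 bp long, on the minus strand of chromosome 19 (34473778 to 34475164, GRCm38). The 250 bases that precede its RefSeq start (RefSeq, GRCm38.p6, chr19:34475149-34475398, minus strand) are shown because Ch25h is the member with the large difference, and because AhR binds DNA through a short motif. Capitals mark the matches to the motifs searched.

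Ch25h upstream: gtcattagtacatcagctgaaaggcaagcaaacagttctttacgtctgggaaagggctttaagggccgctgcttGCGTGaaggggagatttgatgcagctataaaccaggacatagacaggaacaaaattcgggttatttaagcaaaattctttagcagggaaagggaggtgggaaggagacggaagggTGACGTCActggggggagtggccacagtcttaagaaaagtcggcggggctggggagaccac

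The window was searched on both strands for 5 motifs, none of whose matches overlapped. GCGTG, the core that AhR binds with its partner Arnt, occurred 1 time, at -176 to -172 from the start, and occurs in 28.2% of 32851 RefSeq windows of that length. TGACGTCA, the palindromic element of the CREB and ATF factors, occurred 1 time, at -61 to -54, and occurs in 1.55% of the windows. TGANTCA (AP-1), GAAA followed by NN and a further GAAA (the interferon-stimulated response element), and GGAAA followed by NN and CCC (a form of the NF-kB site) had no match in it, and occur in 6.75%, 2.98% and 1.41% of the windows. The corresponding window of Cyp27a1 held none of the 5. These matches are letters in a window, and no binding was measured.

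Ch25h was low in every WT culture and high in every Ahrr-deficient culture. It had 33, 1 and 10 counts in WT replicates 1, 2 and 3, or 1.504, 0.159 and 1.401 CPM, the count scaled to the library total. In replicates 1, 2 and 3 of the Ahrr-deficient group there were 38, 3598 and 457 counts, or 10.7, 86.3 and 46.2 CPM. The groups did not overlap: the lowest Ahrr-deficient library was 7.10 times the highest WT library. The edgeR fit across all genes gave a log2 fold change of 5.35 (SE 0.74), a 40.7-fold difference. This was the second-largest rise among the 11408 tested genes and was past the threshold of an adjusted p under 0.05. Without Ahrr-deficient replicate 2, the highest library, the log2 fold change was 4.62 (SE 0.61), still past the threshold. Because Ch25h was listed with its high level known, these calls describe the fit and are no test of the gene.

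**Figure D1:**
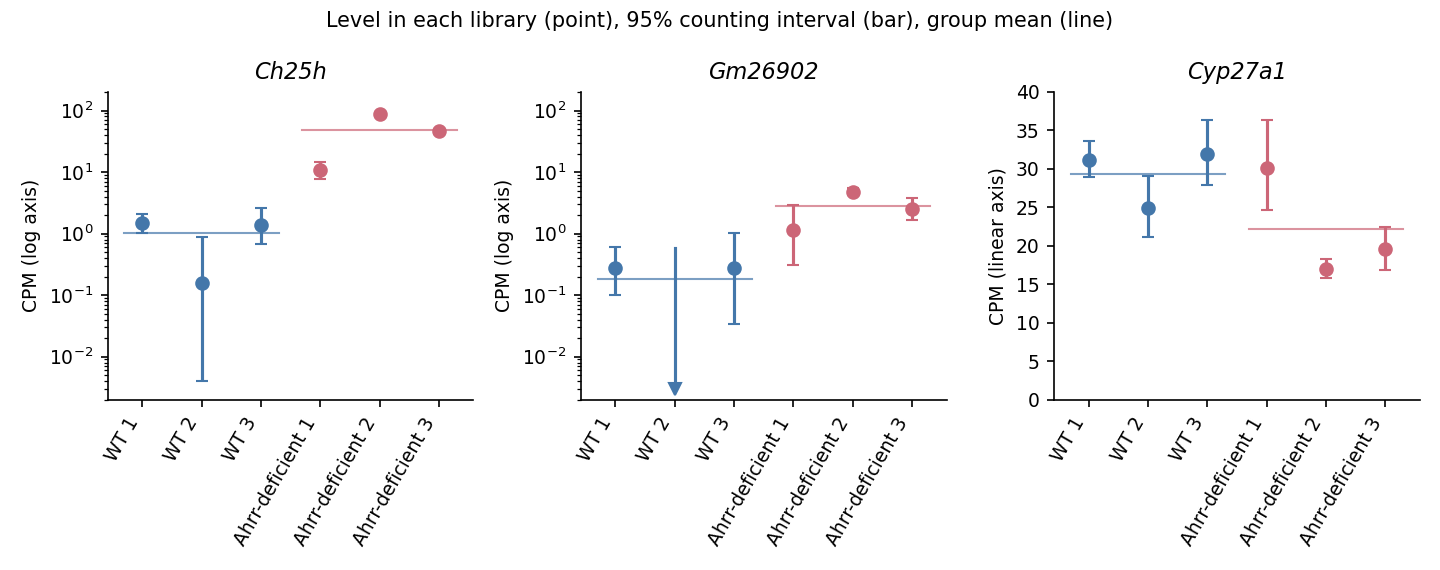
Levels of Ch25h, of the overlapping RNA Gm26902 (both on a log axis) and of Cyp27a1 (linear axis) in CPM for each of the 6 libraries; points are libraries, bars are exact 95% Poisson intervals of the counts, lines are group means and the arrow marks 0 counts. Ch25h is at or below 1.504 CPM in WT and at or above 10.7 CPM in Ahrr-deficient libraries, while Cyp27a1 in Ahrr-deficient replicate 1 (30.1 CPM) lies among the WT libraries.

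Ch25h also varied widely among the Ahrr-deficient libraries. The highest Ahrr-deficient library was 8.08 times the lowest, and the SD of log2 CPM among the 3 libraries was 1.54, against a median of 0.17 over 10034 genes with a mean of at least 50 counts, of which 99.9% had a smaller SD. In WT the counts were too few for such a comparison: the exact 95% Poisson interval of the single count of replicate 2 runs from 0.00402 to 0.884 CPM. The interval of replicate 1 of the Ahrr-deficient group, 7.56 to 14.7 CPM, did not reach those of the other Ahrr-deficient libraries, which began at 83.5 CPM in replicate 2 and 42.1 CPM in replicate 3.

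Part of the Ch25h exon is shared with another transcript. Gm26902, a bidirectional-promoter long non-coding RNA on the plus strand (chromosome 19, 34474808 to 34481546), shares 159 bp with it, which is 11.5% of the Ch25h exon and 4.29% of the exons of Gm26902. Whether counting used strand is not given in the sources used here, so reads from the shared stretch cannot be assigned with certainty. Gm26902 had 6, 0 and 2 counts in WT replicates 1, 2 and 3 and 4, 201 and 25 in replicates 1, 2 and 3 of the Ahrr-deficient group. These are 0.273, 0 and 0.280 CPM against 1.12, 4.82 and 2.53 CPM, so its libraries lay in the same order as those of Ch25h within the Ahrr-deficient group and at far fewer counts. Gm26902 did not pass the filter on low counts, and it is named here after its values were seen.

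Cyp27a1 (ENSMUSG00000026170.6) lies on chromosome 1 from 74713574 to 74737892 on the plus strand, with 2173 bp of exon sequence in 7 blocks, and shares no exon with another annotated gene. It had 684, 157 and 228 counts in WT replicates 1, 2 and 3, or 31.2, 24.9 and 31.9 CPM. The Ahrr-deficient replicates 1, 2 and 3 had 107, 708 and 193 counts, or 30.1, 16.99 and 19.5 CPM. Replicates 2 and 3 of the Ahrr-deficient group were below all WT libraries, and replicate 1 lay between them, so the groups overlapped. The log2 fold change was -0.58 (SE 0.19), and it was not past the threshold. Without Ahrr-deficient replicate 1 it was -0.81 (SE 0.10) and past the threshold, while without Ahrr-deficient replicate 2 it was -0.39 (SE 0.18).

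Of the 2 members tested, 1 was past the threshold, against 19.6% of all tested genes (9.62% higher and 9.95% lower in Ahrr-deficient cells). The libraries of the 2 groups did not overlap for 1 of the 2 members, against 36.6% of all tested genes. Nothing is read from these shares, since the comparison itself led to the list.

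Replicate 1 of the Ahrr-deficient group was nearest to WT for both members. The same library was the Ahrr-deficient library closest to the WT mean in log2 CPM for 58.7% of the 2232 genes past the threshold, against 29.3% for replicate 3 and 11.96% for replicate 2. It was also the shallowest library, with 3556106 counts, and its part in the result for Cyp27a1 beyond the value without it was not tested.

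Per length, the order of both hydroxylases differed between the libraries. In WT replicates 1, 2 and 3 Ch25h was at 1.08, 0.114 and 1.01 CPM per kb of exon and Cyp27a1 at 14.3, 11.5 and 14.7 CPM per kb. In Ahrr-deficient replicates 1, 2 and 3 Ch25h was at 7.70, 62.3 and 33.3 CPM per kb and Cyp27a1 at 13.8, 7.82 and 8.98 CPM per kb. The ratio of Ch25h to Cyp27a1 was between 0.00998 and 0.0756 in WT. It was 0.556, 7.96 and 3.71 in Ahrr-deficient replicates 1, 2 and 3, so Cyp27a1 was the more abundant hydroxylase transcript in 4 libraries and Ch25h in the other 2.

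**Figure D2:**
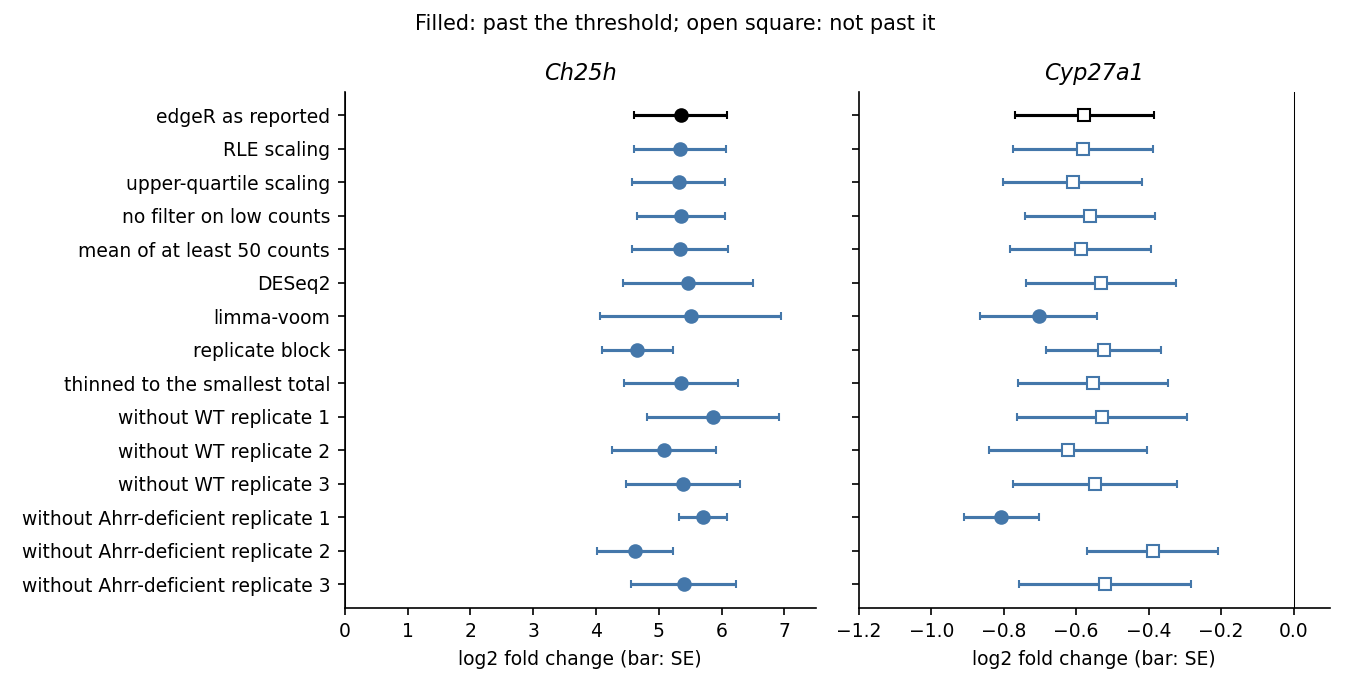
Log2 fold change (Ahrr-deficient over WT, with its SE) of Ch25h and Cyp27a1 in the reported edgeR fit and in 14 alternatives; filled circles are past the threshold and open squares are not. Ch25h stays between 4.62 and 5.86 and past the threshold in all 14, and Cyp27a1 between -0.81 and -0.39 with 2 past it. Both genes were listed with this comparison known, so the calls are descriptive.

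The genes whose log2 CPM followed Ch25h most closely over the 6 libraries, among 10033 candidates with a mean of at least 50 counts, were Scel, Tfdp1 (a partner of E2F factors) and Cactin (a splicing-associated protein), with Pearson correlations of 0.998, 0.998 and 0.997. Scel, the gene of the cornified-envelope protein sciellin, had 9.21, 5.40 and 8.41 CPM in WT and 17.4, 35.7 and 26.7 CPM in Ahrr-deficient libraries, in replicate order. Its log2 fold change of 1.75 (SE 0.24) was smaller than that of Ch25h. Tfdp1 and Cactin differed far less, with log2 fold changes of 0.33 (SE 0.09) and 0.23 (SE 0.09), and Cactin did not pass the threshold. The likeness lies in the pattern over the libraries, and the size of the difference is not shared. For Cyp27a1 the closest genes were the deubiquitinase gene Otud5 (r = 0.993), the caspase gene Casp6 (r = 0.989) and Pik3r4, a subunit of a lipid kinase (r = 0.988), and in each of these Ahrr-deficient replicate 1 lay within the range of the WT libraries or above it. With 6 libraries and so many candidates, such values describe the pattern and carry no test.

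Cyp7b1 (chromosome 3, 18071950 to 18243338), Hsd3b7 (chromosome 7, 127800604 to 127803802) and Gpr183 (chromosome 14, 121952551 to 121965195) had no row under their symbol or identifier, and so the branch that makes, removes and senses the Gpr183 ligand is not analysed here. Every feature with at least 10 counts over the 6 libraries carried an identifier, and no feature without an identifier had more than 9, which is 0.0995 CPM of the pooled counts. Whether the 3 genes were among those features cannot be told. For Hsd3b7 the annotation is crowded: Gm49388 shares 62.0% of its exon bases on the same strand, and 9430064I24Rik shares 62.4% on the opposite strand. The latter, named after its values were seen, had 5, 5 and 2 counts in WT replicates 1, 2 and 3 and 2, 19 and 5 in Ahrr-deficient replicates 1, 2 and 3.

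Libraries held between 3556106 and 41668336 counts, an 11.7-fold range, and 3 counts corresponded to 0.844 CPM in the shallowest and 0.072 CPM in the deepest. Intervals and floors cover counting error only. The targeted gene, Ahrr, was at 4.74 ± 0.53 CPM in WT and 2.01 ± 0.71 CPM in Ahrr-deficient libraries (SD, n = 3 each; edgeR adjusted p 0.0151), so reads assigned to it remained. Ahr, the gene of the receptor whose core motif is marked upstream of Ch25h, was at 7.66, 4.92 and 3.64 CPM in WT and 10.97, 33.2 and 23.97 CPM in Ahrr-deficient libraries, in replicate order (log2 fold change 2.00, SE 0.35, edgeR adjusted p 0.00709). A part of Ahr in the level of Ch25h was not tested. All 13 macrophage markers had a row, and their sum was 23030 to 28570 CPM in WT and 17383 to 24163 CPM in Ahrr-deficient libraries, most of it Lyz2 (12440 to 22740 CPM), with Itgax and Pparg higher and Csf1r lower past the threshold. Of 12 hepatocyte markers 2 had a row (Afp and Apoa2), with a sum of at most 1.13 CPM in any library. Albumin (Alb) and the other defining hepatocyte markers had none. Summed levels were at most 1.401 CPM for 4 stromal and endothelial markers of 11 and at most 2.698 CPM for 3 granulocyte and mast cell markers of 16. The 3 of 9 erythroid markers with a row summed to 13.49 to 22.98 CPM in WT and 2.86 to 4.96 CPM in Ahrr-deficient libraries, nearly all of it Epor, the erythropoietin receptor. The 4 of 8 dendritic cell markers summed to 57.6 to 62.3 CPM and 72.2 to 93.6 CPM, mostly Clec9a, and the 2 of 14 lymphoid markers to 34.5 to 75.9 CPM and 17.5 to 38.8 CPM, mostly Il7r. In bulk samples, fewer cells of a type and less RNA per cell cannot be told apart.

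The surroundings of the pathway were followed with 6 lists of genes, drawn up with the earlier results known. Of their 117 different genes 100 were tested, of which 10 rose and 20 fell in Ahrr-deficient cells (edgeR adjusted p under 0.05). That is 30.0% of the tested list genes, against 19.6% of all tested genes, and 4 genes stand in 2 lists. Fits that each left out 1 library gave between 12 genes (without WT replicate 1) and 42 genes (without Ahrr-deficient replicate 1). In the others it was 17 without WT replicate 2, WT replicate 3 or Ahrr-deficient replicate 2, and 18 without Ahrr-deficient replicate 3.

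**Figure D3:**
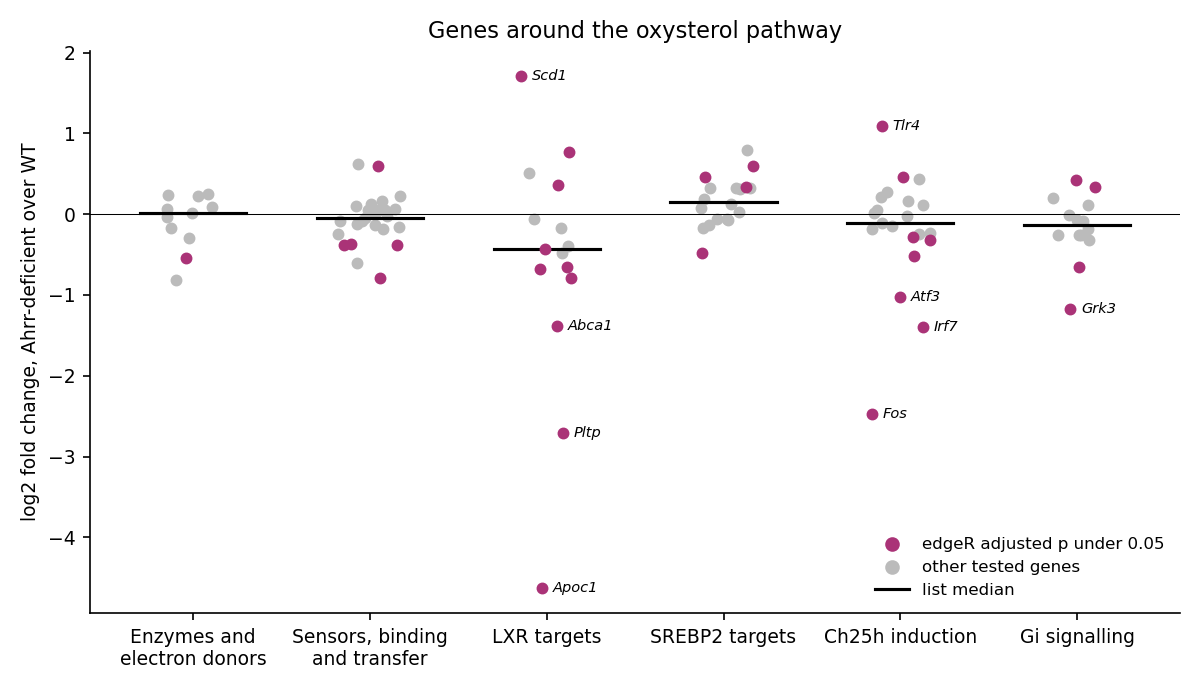
Log2 fold change (Ahrr-deficient over WT) of the tested genes of the 6 pathway lists; each point is a gene, coloured where the edgeR adjusted p is under 0.05, and black lines are list medians. The LXR targets spread the widest, from Apoc1 at -4.62 to Scd1 at 1.71, and the enzymes have 1 coloured gene of 11.

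Among other enzymes that form or convert oxysterols, or that feed them with electrons, 1 of 11 tested genes of 20 listed passed the threshold, lower in Ahrr-deficient cells, with a list median log2 fold change of 0.01 (0.01 over all tested genes). The called share was 9.09%, against 19.6% of all tested genes. The gene past the threshold was Por, the reductase that supplies microsomal P450 enzymes such as Cyp7b1 with electrons. Por was at 104, 90.3 and 99.3 CPM in WT replicates 1, 2 and 3 and at 56.8, 74.2 and 78.5 CPM in replicates 1, 2 and 3 of the Ahrr-deficient group (log2 fold change -0.55, SE 0.11, edgeR adjusted p 0.0110). The groups did not overlap, and the call was lost without WT replicate 1 (edgeR adjusted p 0.0632). Fdx1 and Fdxr, which carry electrons to mitochondrial P450 enzymes such as Cyp27a1, had log2 fold changes of 0.25 (SE 0.15) and 0.24 (SE 0.17) and did not pass.

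Of 25 tested sensors, binding and transfer proteins of sterols, 1 was higher and 4 were lower past the threshold. The list median was -0.05. The called share, 20%, was near the 19.6% of all tested genes, so nothing is read from the count. Both LXR genes were lower in Ahrr-deficient cells. Nr1h3, which encodes LXR-alpha, was at 22.2, 18.6 and 20.04 CPM in WT replicates 1, 2 and 3. It was at 13.2, 12.2 and 12.3 CPM in replicates 1, 2 and 3 of the Ahrr-deficient group (log2 fold change -0.80, SE 0.11, edgeR adjusted p 0.0031). Nr1h2, which encodes the widely expressed LXR-beta, was at 120.9, 109.7 and 126.7 CPM against 86.3, 94.5 and 107.2 CPM in the same order (log2 fold change -0.38, SE 0.09, edgeR adjusted p 0.0197). The WT and Ahrr-deficient libraries did not overlap for either gene, as for 36.6% of all tested genes. Both genes were past the threshold, which favours such separation.

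Rxrb, a partner receptor of the LXRs, was at 70.0 to 74.0 CPM in WT and at 52.6 to 65.5 CPM in Ahrr-deficient libraries (log2 fold change -0.38, SE 0.10, edgeR adjusted p 0.0253). The calls of Nr1h2 and Rxrb were each lost in 4 of the 6 fits that left out 1 library, those without any WT replicate or without Ahrr-deficient replicate 2, where their edgeR adjusted p reached 0.0883 and 0.110. Rxra, the other partner gene of the list, had a log2 fold change of 0.13 (SE 0.09) and did not pass. Stard4, a carrier of cholesterol between membranes, was the gene of this list that was higher, at 19.1, 16.2 and 18.8 CPM in WT replicates 1, 2 and 3 and 30.7, 26.3 and 30.3 CPM in replicates 1, 2 and 3 of the Ahrr-deficient group (log2 fold change 0.59, SE 0.11, edgeR adjusted p 0.00813). Insig1, Insig2 and Scap, through which oxysterols act on SREBP2, had log2 fold changes of -0.14 (SE 0.11), 0.06 (SE 0.09) and -0.15 (SE 0.13), and none passed.

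Of 15 tested genes known as LXR targets, 3 were higher and 7 lower past the threshold, with a list median of -0.43. That is 66.7% of the tested list, against 19.6% of all tested genes. The libraries of the groups did not overlap for any of the 10, against 36.6% of all tested genes. Being already past the threshold favours such separation, so nothing further is read from it. Apoc1, an apolipoprotein gene, was at 14.1, 16.2 and 12.9 CPM in WT replicates 1, 2 and 3. It was at 0.844, 0.552 and 0.708 CPM in replicates 1, 2 and 3 of the Ahrr-deficient group (log2 fold change -4.62, SE 0.24, edgeR adjusted p 1.44e-04). These Ahrr-deficient values rest on few counts, 3, 23 and 7 in replicate order, against 310, 102 and 92 in WT. Pltp, the phospholipid transfer protein, was at 256, 267 and 247 CPM in WT and at 82.7, 19.9 and 34.5 CPM in Ahrr-deficient libraries, in replicate order (log2 fold change -2.71, SE 0.43, edgeR adjusted p 0.00519). Among the Ahrr-deficient libraries of Pltp replicate 1 was the highest, and 495 bp of its exons overlap Ctsa on the opposite strand.

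Abca1, the transporter that loads cholesterol onto apolipoproteins, was at 97.3, 64.9 and 144 CPM in WT replicates 1, 2 and 3 and at 64.4, 42.2 and 21.03 CPM in replicates 1, 2 and 3 of the Ahrr-deficient group. The highest Ahrr-deficient library nearly met the lowest WT library. The fit gave a log2 fold change of -1.38 with SE 0.36 (edgeR adjusted p 0.0281). The call was lost with DESeq2 (adjusted p 0.0582) and without WT replicate 1 or 3 or Ahrr-deficient replicate 2 or 3. Its partner in efflux, Abcg1, moved the other way, with 641 to 828 CPM in WT and 944 to 1109 CPM in Ahrr-deficient libraries (log2 fold change 0.37, SE 0.11, edgeR adjusted p 0.0497). Scd1, a fatty acid desaturase, was at 3.65, 3.17 and 4.90 CPM in WT and 7.87, 15.6 and 13.7 CPM in Ahrr-deficient libraries, in replicate order (log2 fold change 1.71, SE 0.24, edgeR adjusted p 0.00331). Scd1 has close relatives of similar sequence, so its counts are less certain. Mylip (-0.65, SE 0.11), Arl4c (-0.68, SE 0.18) and Smpdl3a (-0.43, SE 0.13) were lower and Fasn (0.77, SE 0.20) higher past the threshold, and Srebf1, the target that encodes a lipogenic transcription factor, had a log2 fold change of -0.05 (SE 0.11). The list was therefore divided in direction.

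**Figure D4:**
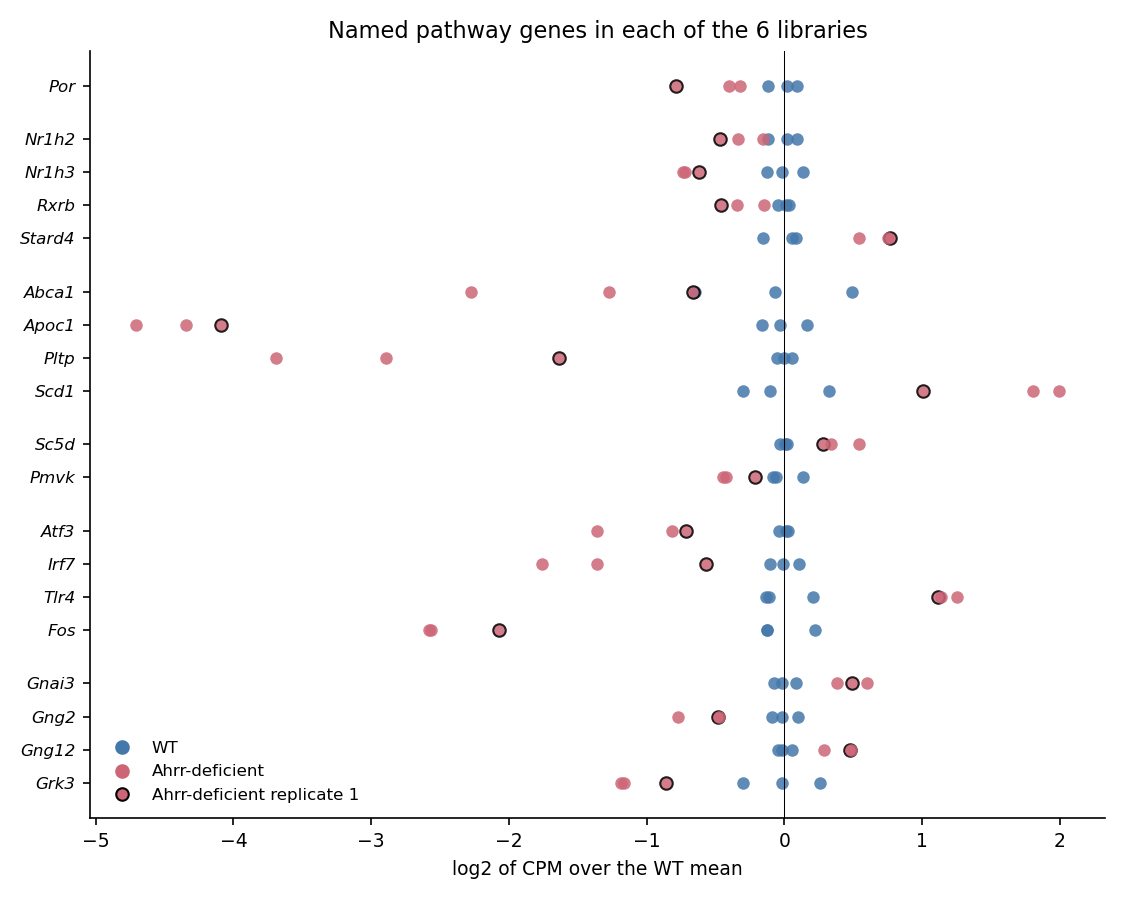
Log2 of CPM over the WT mean for 19 genes of the pathway lists in each of the 6 libraries, by list from enzymes (top) to Gi signalling (bottom); points are libraries and Ahrr-deficient replicate 1 has a black outline. In all 19 genes the 2 groups do not overlap, and 6 genes lie to the right and 13 to the left of the WT libraries. Besides Nr1h2 and Nr1h3, the genes were picked for passing the threshold with the largest differences. The separation was therefore largely fixed by the choice. Over all tested genes the groups do not overlap for 36.6%.

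Cholesterol synthesis and uptake genes under SREBP2 had a list median of 0.16, with 3 of 18 tested genes higher and 1 lower past the threshold. The called share, 22.2%, was near the 19.6% of all tested genes, so nothing is read from the count. Stard4, described above, is also of this list. The calls of Sc5d, a late desaturase (log2 fold change 0.33, SE 0.10, edgeR adjusted p 0.0450), and of Pmvk, the phosphomevalonate kinase (-0.48, SE 0.12, edgeR adjusted p 0.0261), were lost in 11 and 6 of the 14 alternatives. Srebf2, the gene of SREBP2 itself, had a log2 fold change of 0.33 (SE 0.13) and did not pass.

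Genes of the signals that induce or restrain Ch25h in macrophages were also compared, and their part in the level of Ch25h was not tested. Of 21 tested, 2 were higher and 6 lower past the threshold, with a list median of -0.11. The called share was 38.1%, against 19.6% of all tested genes (9.62% higher and 9.95% lower). Atf3, a stress-induced factor known to repress Ch25h, was at 187, 181 and 188 CPM in WT replicates 1, 2 and 3 and at 113, 105 and 72.2 CPM in replicates 1, 2 and 3 of the Ahrr-deficient group. The groups did not overlap, with a log2 fold change of -1.02 and SE of 0.15 (edgeR adjusted p 0.00409). Tlr4, the receptor for lipopolysaccharide, was at 183, 145 and 147 CPM in WT and at 344, 377 and 349 CPM in Ahrr-deficient libraries, in replicate order (log2 fold change 1.10, SE 0.11, edgeR adjusted p 0.00101). Its adaptor Myd88 was also higher (log2 fold change 0.46, SE 0.14, edgeR adjusted p 0.0435), although Ahrr-deficient replicate 1 lay within the WT range.

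Among interferon receptor and interferon regulatory factor genes 3 were lower past the threshold and the others did not pass. Irf5, a factor downstream of Toll-like receptors, was at 46.98 to 75.7 CPM in WT and 76.2 to 100.6 CPM in Ahrr-deficient libraries, without overlap (log2 fold change 0.44, SE 0.14, edgeR adjusted p 0.0542), and so missed the threshold narrowly with the opposite sign. Irf7, an interferon-induced factor that amplifies the type I response, was at 12.1, 10.5 and 11.2 CPM in WT and at 7.59, 4.39 and 3.34 CPM in Ahrr-deficient libraries, in replicate order (log2 fold change -1.39, SE 0.23, edgeR adjusted p 0.00631), and 45 bp of its exons overlap Phrf1 on the opposite strand. The receptor genes Ifnar2 and Ifngr1 were lower by smaller amounts (log2 fold changes -0.32, SE 0.09, and -0.51, SE 0.12; edgeR adjusted p 0.0375 and 0.0200). Stat2 and Irf9, which carry the type I interferon signal, had log2 fold changes of -0.02 (SE 0.08) and -0.18 (SE 0.09), and neither passed. Fos, a subunit of AP-1, was at 326, 326 and 415 CPM in WT and at 84.6, 59.4 and 59.97 CPM in Ahrr-deficient libraries, in replicate order (log2 fold change -2.48, SE 0.16, edgeR adjusted p 3.08e-04). Its partner Jun did not pass (0.28, SE 0.15), and the NF-kB subunit gene Rela was lower by a small amount (log2 fold change -0.28, SE 0.08) with libraries that overlapped.

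Gpr183 signals through the Gi class of G proteins, and with the receptor not analysed here, the 14 tested genes of that signalling serve as context. Of these 2 were higher and 2 lower past the threshold, with a list median of -0.14. The called share was 28.6%, against 19.6% of all tested genes. Grk3, a kinase that desensitises G-protein-coupled receptors, was at 37.8, 31.1 and 45.96 CPM in WT replicates 1, 2 and 3 and at 21.1, 16.8 and 17.1 CPM in replicates 1, 2 and 3 of the Ahrr-deficient group (log2 fold change -1.17, SE 0.14, edgeR adjusted p 0.00203). The gamma subunit gene Gng2 was lower (log2 fold change -0.65, SE 0.10, edgeR adjusted p 0.00519), and the alpha subunit gene Gnai3 was higher (0.42, SE 0.08, edgeR adjusted p 0.0103), a call lost without WT replicate 1 (edgeR adjusted p 0.0736). Gng12 was higher by 0.34 (SE 0.09, edgeR adjusted p 0.0322), a call lost in 4 of the 6 fits that left out 1 library. Gnai2, the main Gi alpha gene of leukocytes, was at 575 to 658 CPM in WT and 495 to 579 CPM in Ahrr-deficient libraries and did not pass (log2 fold change -0.32, SE 0.10). Gng2 and Gng12 overlap antisense transcripts in 897 and 125 bp of their exons.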

How the data were processed

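RNA was measured in 6 libraries. Per the labels' protocols, the TruSeq RNA kit was given 100 ng of RNA per library, and reads were 75 bp, single-end. The submitters' processing notes name fastp 0.20.0, STAR 2.7.10b, DESeq2 1.40.2 and the build mm10; the counting program, its strand setting and the annotation are not given in the sources used here. The authors deposited raw counts for 53465 features without identifiers. They also deposited a normalized signal (counts over a size factor) for 16111 named genes, from which whole reads were recovered for 100% of values (within 0.001 read); these equal the raw counts of all features with at least 10 counts. Features without identifiers held 0.0232% to 0.0511% of a library's counts and entered the totals only.

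Counts were tested with edgeR 4.0.16 in R 4.3.3 (quasi-likelihood, TMM, filterByExpr, genotype only, two-sided, Benjamini-Hochberg over 11408 genes, threshold 0.05). SEs come from the fold change and the F statistic. Positions and exon lengths are from GENCODE mouse release 21 (GRCm38; 16088 of 16111 identifiers matched by stable identifier). Samples were grouped by title. Replicate pairs differed beyond counting noise. The chi-square per degree of freedom was 5.79 for WT replicates 1 and 3, and 10.7 to 17.2 within the Ahrr-deficient group. WT replicate 2 stood apart, at 175 against WT replicate 1 and 70.0 against WT replicate 3. The scripts were tested on simulated data.

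The members and lists were chosen with earlier results of these data known. Besides the members, Nr1h2 and Nr1h3, the rule named up to 4 genes per list past the threshold with the largest absolute log2 fold change, and the 3 genes most correlated with each member in log2 CPM (prior count 2). Other genes were named after their values were seen, and values of some list genes are not reported here. The alternatives were RLE and upper-quartile scaling, 2 other filters, DESeq2 1.42.0, limma-voom (limma 3.58.1), the replicate block, thinning to the smallest total and each library left out.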

Additional observations from a re-analysis of the deposited data

How the results depend on the processing

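All 14 alternatives were planned, and the causes of the changes below were not tested. Ch25h was listed with its high level known, so its calls are descriptive. Its log2 fold change kept its direction and its side of the threshold in all 14, from 4.62 to 5.86. That of Cyp27a1 was -0.70 and past the threshold with limma-voom, and -0.81 and past it without Ahrr-deficient replicate 1; in the fits that left out 1 library it ran from -0.81 to -0.39. With those 2 settings 2 members were past the threshold instead of 1, and the number ran from 1 to 2 over the left-out libraries. Replicate numbers did not pair the libraries: within equal numbers, residuals about the group means correlated at -0.17, 0.07 and 0.13, and the labels name different mice. With the replicate block 1390 genes passed (666 higher, 724 lower) against 2232, Ch25h was at 4.66 and Cyp27a1 at -0.52, and Abca1, Pmvk, Rxrb and Sc5d missed the threshold. After thinning 1251 passed. Leaving out libraries gave 694 to 3857 genes in all and 12 to 42 wider pathway genes. Of 280 values for the 20 pathway genes that the naming rule picked, 240 kept direction and call, 40 kept direction but lost the call (29 of them with a library left out), and 0 reversed; 11 genes kept every call. Depth limits Ch25h in WT, where 3 libraries held 33, 1 and 10 counts.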
